A study of Gallus gallus with 3 samples.

Results

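Laminins, nidogens and the other glycoproteins of the pericellular matrix, together with the integrins that bind them, were followed in single-cell RNA profiles of the early chicken wing field. The genes were chosen by symbol as the laminin chains (LAMA, LAMB and LAMC with a number), the nidogens (NID), the integrin alpha and beta chains (ITGA and ITGB), and HSPG2, FN1 and AGRN. This rule took 30 genes of the 16748 in the count tables, of which 12430 carry a symbol. The rule itself used no measured value, though the genes were chosen with earlier results of these data known. Those found were LAMA1, LAMA3, LAMA4, LAMA5, LAMB1, LAMB2, LAMB3, LAMB4, LAMC1, NID1, HSPG2, AGRN, FN1, ITGA2, ITGA2B, ITGA3, ITGA4, ITGA6, ITGA7, ITGA8, ITGA9, ITGA11, ITGAV, ITGB1, ITGB2, ITGB3, ITGB5, ITGB6, ITGB7 and ITGB8. NID2, ITGA1, ITGA5 and ITGB4 were not analysed here, and 4318 genes carry only an identifier that could not be matched to a symbol.

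The tissue was forelimb field dissected lateral to the somites of untreated wild-type chicken embryos, males and females pooled, at Hamburger-Hamilton (HH) stages 10, 14 and 18, which the labels place at day 1.5 of development for HH10, 2.5 for HH14 and 3.5 for HH18. Each stage was 1 library with no replicate, so values are given with intervals that cover counting error only and no test between stages was made. Cell classes and their names are those of the authors' annotation.

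Laminins are trimers of an alpha, a beta and a gamma chain that polymerise into the sheet on which a basement membrane is built, while nidogen, perlecan (HSPG2) and agrin (AGRN) tie that sheet to collagen IV and to the cell surface. Fibronectin (FN1) is the main early interstitial matrix protein on which mesoderm cells spread. Integrins are alpha-beta pairs that read this matrix: the alpha chain largely sets which ligand is bound, and most alpha chains of the early embryo pair with ITGB1.

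The libraries held 1210, 1313 and 739 cells at HH10, HH14 and HH18, with 11855255, 11267879 and 6557527 captured RNA molecules, counted by their molecular barcode (UMI), and a median of 7799, 6641 and 5994 UMIs per cell. A single cell barcode occurred in 2 libraries. Levels (CPM) are UMIs of a gene over all UMIs of the same cells, scaled to 1000000. The kit counts the 3' end of transcripts, so a level is compared for the same gene between groups and not between genes. Classes entered with 20 or more cells, giving 33 combinations of class and library, and fewer cells of a class and less RNA per cell cannot be told apart in values over all cells. Marker lists bore out the names of the blood vessel class (summed endothelial markers of 2124 to 2496 CPM, against at most 351 CPM elsewhere), the endoderm and the limb bud mesenchyme, although the flank class held as much of the limb list at HH18. The blood vessel class also held 1998 to 3271 CPM of the blood list. The ectoderm list stood at 1461 to 4584 CPM in both ectoderm classes but was as high in endoderm, amnion and gut. The class named primitive streak held 159 CPM of the primitive mesoderm list, against 149 CPM in primitive MES, and its median ribosomal share was 11.6% of UMIs, with 20.9% to 28.6% in the other classes. It is called by the annotation's name, without more.

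Of the 30 genes, 18 had 100 or more UMIs over all libraries and ITGA2 had 41. The other 11 had under 30 UMIs each, and their order between stages cannot be read at this depth. For ITGA11, a collagen receptor chain, the HH10, HH14 and HH18 libraries held 2, 4 and 4 UMIs. ITGA7, known from muscle as a laminin receptor chain, had 2, 4 and 2 UMIs. The chains known from thrombocytes and leukocytes were at the edge of detection, with 4, 1 and 0 UMIs for ITGA2B, 0, 0 and 1 for ITGB2, and 2, 0 and 0 for ITGB7. ITGB6 and ITGB8, which pair with ITGAV, had 6, 8 and 3 and 4, 9 and 11 UMIs. LAMB2 had 11, 6 and 10 UMIs and LAMB3 a single UMI at HH18. LAMA3 and LAMB4 are taken up below, since most of their few UMIs lay in the ectoderm.

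**Figure D1:**
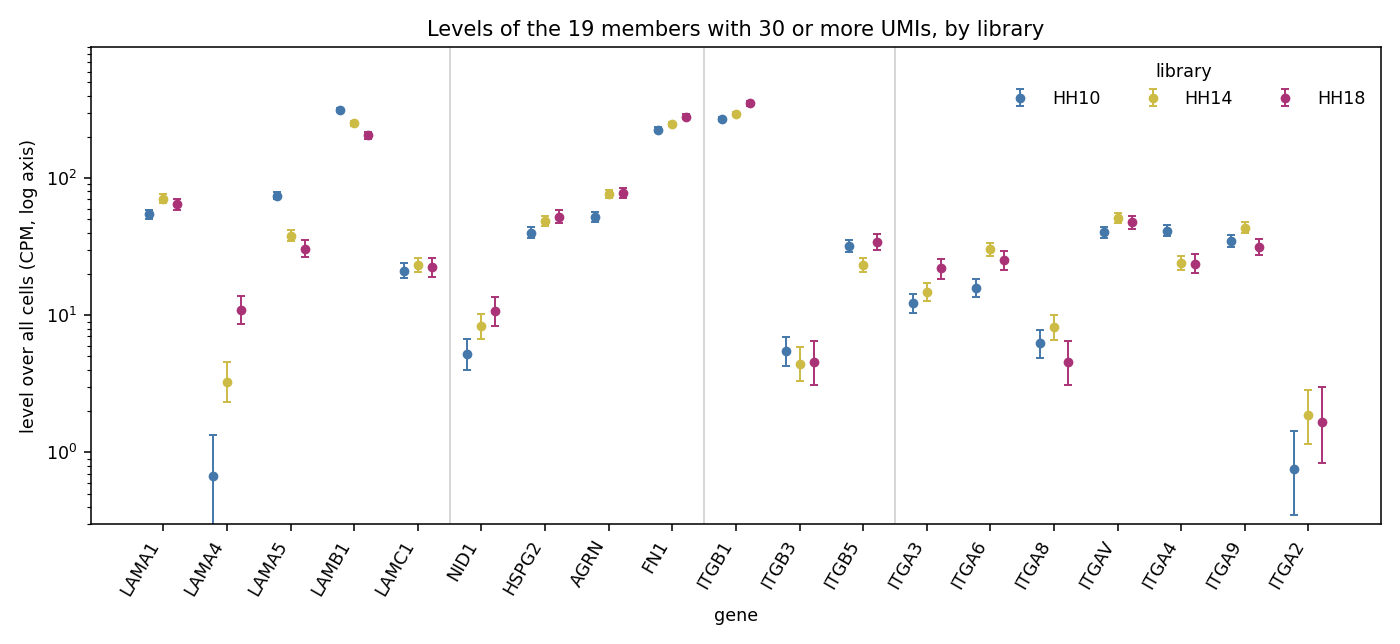
Level over all cells of each library (CPM, log axis) for the 19 genes with 30 or more UMIs, with exact 95% Poisson intervals as bars and vertical lines between laminin chains, other matrix genes, integrin beta chains and integrin alpha chains. LAMA4 lies at 0.675, 3.28 and 11.0 CPM at HH10, HH14 and HH18, while LAMA5 lies at 74.7, 38.2 and 30.7 CPM.

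Over all cells, the laminin alpha chains LAMA4 and LAMA5 differed between stages in opposite directions, while most receptors stayed within 2-fold. LAMA4 was 16.3-fold higher at HH18 than at HH10 and LAMA5 was lower, at 0.410 of its HH10 level. Only these and NID1 lay past 2-fold among the 18 genes measured in that pair of libraries (30 or more UMIs in both together). Past 2-fold is used as a description of size, and 2 of the 18 were higher and 1 lower, where 9.1% and 4.22% of the 10406 measured genes were. For HH14 over HH10, 2 of 19 were higher (LAMA4 and ITGA2) and 0 lower, where 6.66% and 2.89% of all measured genes were. For HH18 over HH14, only LAMA4 of 19 was higher and 0 were lower, where 3.09% and 2.76% of all measured genes were. The median log2 fold of the measured genes of this set was 0.29, -0.02 and 0.24 for HH14 over HH10, HH18 over HH14 and HH18 over HH10, beside -0.01, 0.09 and 0.08 for all measured genes.

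Among the alpha chains, LAMA5, which is found in many epithelial and vascular basement membranes, was counted 886, 430 and 201 times at HH10, HH14 and HH18, or at 74.7 (95% interval 69.9 to 79.8), 38.2 (34.6 to 41.9) and 30.7 (26.6 to 35.2) CPM. The 3 intervals for LAMA5 touched only between HH14 and HH18. The fold was 0.511 for HH14 over HH10 (0.454 to 0.574) and 0.803 for HH18 over HH14 (0.676 to 0.952). LAMA1, the alpha chain of the earliest embryonic basement membranes, was at 54.3, 70.9 and 64.4 CPM, so that it stayed within 1.31-fold of its HH10 level. Of the UMIs of LAMA5 and LAMA1 together, LAMA5 made up 57.9%, 35.0% and 32.3% at HH10, HH14 and HH18. LAMA4, an alpha chain of vessels and mesenchymal tissue, had 8, 37 and 72 UMIs, or 0.675 (0.291 to 1.33), 3.28 (2.31 to 4.53) and 11.0 (8.59 to 13.8) CPM. Its 3 intervals were apart from each other, and the folds were 4.87 for HH14 over HH10 (2.23 to 12.1) and 3.34 for HH18 over HH14 (2.22 to 5.11).

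The beta chain of most embryonic laminins, LAMB1, was at 314, 251 and 205 CPM at HH10, HH14 and HH18, on 3724, 2830 and 1346 UMIs. LAMC1, the gamma chain shared by most laminins, was at 21.2, 23.3 and 22.4 CPM, with overlapping intervals in all 3 libraries. LAMC1 made up 6.31%, 8.50% and 9.85% of the LAMB1 and LAMC1 UMIs. Summed over the 9 laminin genes, the level was 466, 388 and 339 CPM.

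The linkers went the other way. NID1, which joins laminin to collagen IV, was at 5.23 (4.01 to 6.70), 8.34 (6.74 to 10.2) and 10.7 (8.32 to 13.5) CPM at HH10, HH14 and HH18, and 2.04-fold higher at HH18 than at HH10 (1.43 to 2.92). AGRN was at 52.2, 76.8 and 78.2 CPM. HSPG2 was at 39.9, 48.8 and 52.3 CPM. FN1 was at 226, 249.6 and 281 CPM, and FN1 made up 41.9%, 49.8% and 57.8% of the FN1 and LAMB1 UMIs.

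These stage values mix classes whose numbers differed between libraries. An equal class mix gave the same weight to each class with 20 or more cells in both libraries. Other classes were left out. For HH14 over HH10 the mix held blood vessels, endoderm, first ectoderm, undifferentiated lateral plate 1 and 7, and low count cells. For HH18 over HH10 it held only blood vessels, first ectoderm and low count cells, and no lateral plate or limb class. With this mix LAMA5 was still lower at HH14 than at HH10 (0.461) but higher at HH18 than at HH14 (1.46). With the same weights NID1 was lower at HH14 than at HH10 (0.462), and FN1 was 0.657 of its HH10 level at HH14. LAMA4 was then 1.30-fold higher at HH18 than at HH14. The NID1 value gave endoderm the weight of any other class. NID1 in endoderm was 60.6 CPM (32.3 to 104) for HH10, against 14.5 CPM (2.98 to 42.3) for HH14, with overlapping intervals. How far endoderm alone set the mix value was not tested. In the pooled lateral plate and limb cells described below, NID1 was higher at HH14 than at HH10. Within the first ectoderm class, described below, LAMA5 had 65, 49 and 44 UMIs of 767603, 770443 and 390961 at HH10, HH14 and HH18. Its level in that class was thus higher at HH18 than at HH10, while in blood vessels and low count cells it was lower. In first ectoderm the LAMA5 levels at HH18 and HH10 did not differ beyond counting error.

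Of the receptors, ITGB1, the beta chain common to the laminin, collagen and many fibronectin receptors, was at 271, 293 and 352 CPM at HH10, HH14 and HH18, on 3212, 3299 and 2308 UMIs. ITGB5, a partner of ITGAV, was at 31.9, 23.3 and 34.2 CPM, lowest at HH14. ITGB3, the beta chain of the vitronectin receptor, was at 5.48, 4.44 and 4.57 CPM with intervals that overlapped.

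The alpha chains of the laminin receptors were ITGA6, at 15.9 (13.7 to 18.3), 30.2 (27.1 to 33.6) and 25.2 (21.5 to 29.3) CPM, and ITGA3, at 12.2, 14.8 and 22.0 CPM. For ITGA6 the HH10 library was the low one, and the fold for HH14 over HH10 was 1.90 (1.59 to 2.29). ITGA4, which binds fibronectin and VCAM1, was at 41.3 (37.8 to 45.2), 24.1 (21.3 to 27.1) and 23.8 (20.2 to 27.8) CPM, with HH10 the high library and a fold of 0.582 for HH14 over HH10 (0.500 to 0.676). Its close relative ITGA9, known to bind tenascin and other matrix ligands, was at 34.8, 43.6 and 31.6 CPM. ITGAV, which recognises the RGD motif of fibronectin and vitronectin, was at 40.2, 51.5 and 47.6 CPM. ITGA8, a chain of the nephronectin receptor, was at 6.24, 8.16 and 4.57 CPM. ITGA2, a collagen receptor chain, had only 9, 21 and 11 UMIs, and its fold of 2.45 for HH14 over HH10 had an interval of 1.08 to 6.09.

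Lateral plate mesoderm (LPM) and the limb mesenchyme that arises from it were next pooled, as the undifferentiated LPM 1 and 7, extraembryonic, splanchnic and flank LPM, somatopleure and limb bud classes. The make-up of this pool differed between stages: undifferentiated LPM 7 gave 427, 64 and 0 cells at HH10, HH14 and HH18, splanchnic LPM 18, 215 and 21, and limb bud mesenchyme 0, 21 and 180. Stage and make-up cannot be told apart in the pooled values. In these cells the LAMA5 and LAMA4 patterns were wider than over all cells. LAMA5 was at 79.0, 30.7 and 18.04 CPM at HH10, HH14 and HH18, and its fold for HH18 over HH10 was 0.228 (0.172 to 0.298). LAMA4 had 0, 15 and 57 UMIs, and its level at HH18, 16.1 CPM, was at least 27.0-fold higher than the limit that 3 UMIs set at HH10. LAMB1 was at 334, 232 and 152 CPM, with a fold of 0.455 for HH18 over HH10 (0.413 to 0.502). Single classes did not all follow these pooled values. In splanchnic LPM, LAMA5 was at 108 CPM at HH18, against 41.5 CPM at HH14, and LAMB1 at 323 CPM, against 309 CPM. In flank LPM, LAMA5 was at 23.0 CPM at HH18, against 5.75 CPM at HH14, on 11 and 1 UMIs.

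Among mesenchymal receptors, ITGA6 was at 22.8, 35.0 and 11.0 CPM at HH10, HH14 and HH18, highest at HH14 and lowest at HH18. Its fold for HH18 over HH14 was 0.314 (0.217 to 0.446), on 39 and 188 UMIs. Within splanchnic LPM, ITGA6 was at 33.6 CPM at HH18, against 55.0 CPM at HH14, a fold of 0.612 (0.194 to 1.47). Limb bud mesenchyme held 10.6 CPM of ITGA6 at HH18, against 15.7 CPM at HH14, with a fold interval of 0.254 to 2.25. ITGB5 was at 31.0, 12.1 and 19.7 CPM, with a fold of 0.390 for HH14 over HH10 (0.288 to 0.524). ITGB3 had 10, 9 and 21 UMIs, and its fold for HH18 over HH14 of 3.54 (1.55 to 8.77) came mostly from somatopleure, which held 12 of the 21. ITGB1 was at 249, 295 and 360 CPM, and in mesenchyme too it was highest at HH18. NID1, at 3.18, 8.93 and 5.64 CPM, was 2.81-fold higher at HH14 than at HH10 (1.57 to 5.30).

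Counted over the mesenchyme, 1 of 16 genes was past 2-fold higher and 2 lower for HH14 over HH10, where 4.34% and 2.57% of all genes were. For HH18 over HH14, 2 of 18 were higher and 1 lower, where 3.71% and 2.99% of all genes were. For HH18 over HH10, 2 of 18 were higher and 3 lower, where 8.18% and 4.17% of all genes were.

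**Figure D2:**
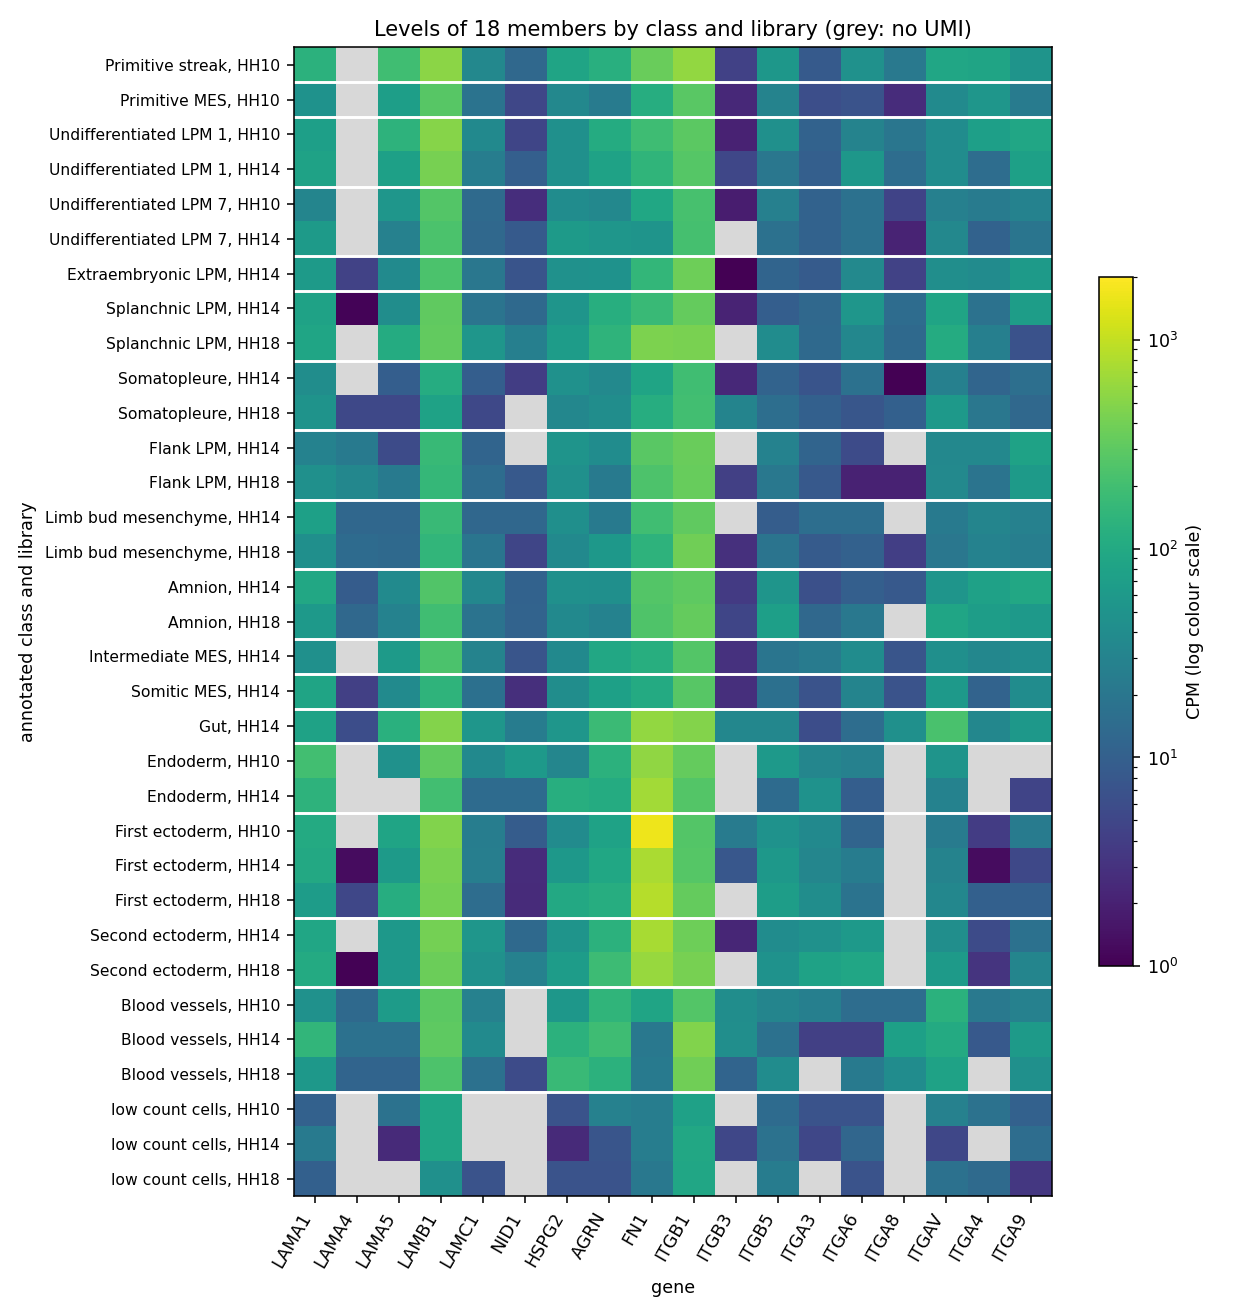
Level (CPM, log colour scale) of the 18 genes with 100 or more UMIs in each annotated class and library with 20 or more cells; grey cells held no UMI. FN1 is brightest in the ectoderm classes, with 1653 CPM in the first ectoderm class at HH10. ITGA8 is grey in every row of the ectoderm classes, of which the second has no row at HH10.

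Between classes of the same library, the set was uneven. At HH10, HH14 and HH18, 14 of 17, 16 of 18 and 16 of 18 measured genes had 1 or more classes at least 2-fold above the other cells, where 46.4%, 49.4% and 36.6% of all measured genes did. The classes were drawn from the same expression values, so these counts and the folds between classes below are descriptions.

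FN1 was highest in ectoderm and endoderm. Its level in the first of the 2 clusters annotated as ectoderm was 1653 (1563 to 1747), 764 (704 to 829) and 849 (760.3 to 946) CPM at HH10, HH14 and HH18. That was 13.0-fold, 3.61-fold and 3.46-fold the level in the other cells of the same library. The second ectoderm cluster, absent at HH10, held 746 CPM at HH14 and 621 CPM at HH18. Endoderm held 559.8 and 704 CPM at HH10 and HH14, and gut 582 CPM at HH14. The lowest FN1 levels outside the low count cells were in blood vessels, at 85.4, 21.1 and 22.9 CPM. Among mesenchymal classes FN1 ranged at HH14 between 51.8 CPM in undifferentiated LPM 7 and 288 CPM in flank LPM.

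Within the first ectoderm cluster, FN1 was lower at HH14 than at HH10, with a fold of 0.462 (0.419 to 0.510). It was the only gene of 11 measured past 2-fold lower in this comparison, where 3.32% of all genes were, and 0 were higher, where 2.58% were. The median cell of that cluster held 9 FN1 UMIs at HH10, and 9 of its 81 cells held 38.1% of the UMIs. With every cell thinned to 2800 UMIs, the share of first ectoderm cells with a FN1 UMI was 90.9% (exact Clopper-Pearson interval 82.2% to 96.3%), 74.1% (63.5% to 83.0%) and 75.0% (58.8% to 87.3%) at HH10, HH14 and HH18. The thinning left out 4, 8 and 13 cells of this cluster, and the shares before thinning were 92.6%, 89.2% and 90.6%. The low count cells, the class with the lowest thinned shares of FN1, had 0%, 5.36% and 4.65%, with a median depth of 2836.5, 2755 and 2668 UMIs per cell, against 6764, 6648 and 4335 UMIs per cell in first ectoderm.

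**Figure D3:**
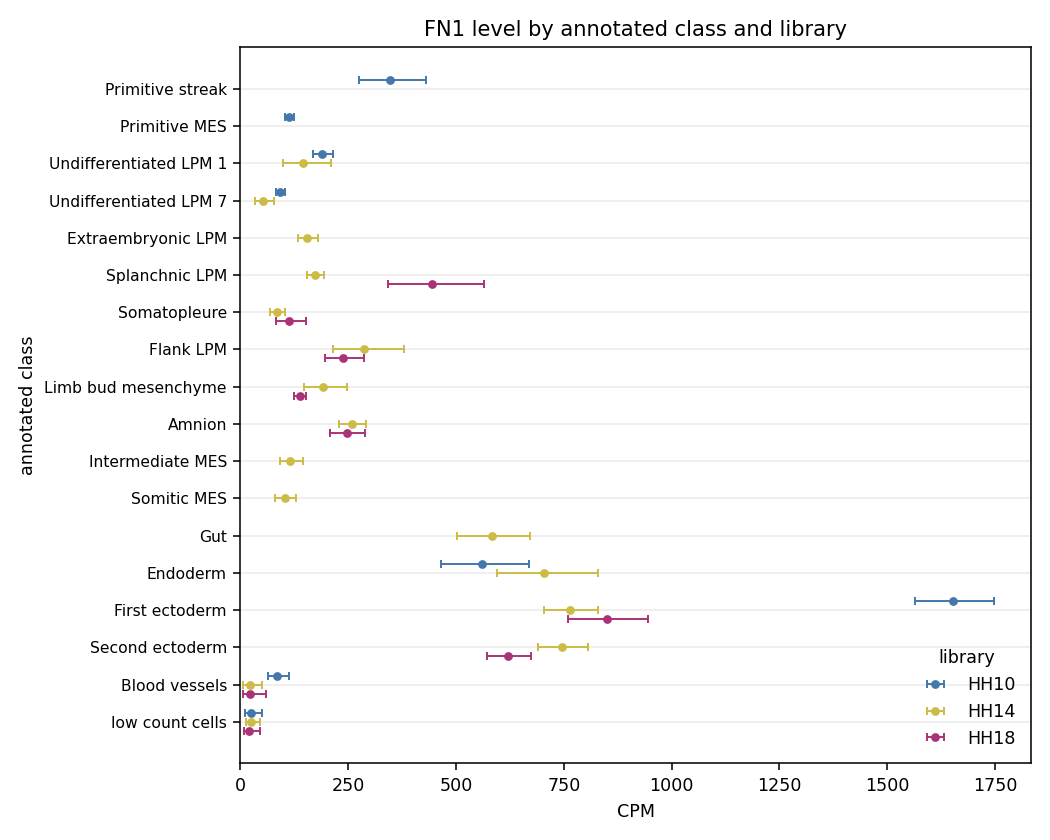
FN1 level (CPM) in each annotated class, with exact 95% Poisson intervals, coloured by library. The first ectoderm cluster at HH10, at 1653 CPM, stands apart from every other point, and blood vessels lie between 21.1 and 85.4 CPM.

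LAMA5, LAMB1 and LAMC1 were ordered alike over classes. LAMA5 and LAMB1 ranked the 33 class and library combinations most alike, with a Spearman rho of 0.85, followed by LAMB1 with LAMC1 (0.79) and AGRN with LAMC1 (0.78). LAMA5 with LAMC1 had a rho of 0.70. LAMA1 was ordered nearly as much like LAMC1 and LAMB1, with a rho of 0.67 for each. The rho of LAMA5 with LAMA1 was 0.40, and 0.27 over the 30 combinations without low count cells. Without those cells LAMA5 with LAMB1 was at 0.83, LAMB1 with LAMC1 at 0.72 and LAMA5 with LAMC1 at 0.65. LAMA1 was then at 0.56 with each of LAMC1 and LAMB1. LAMA4 had a rho of -0.25 to -0.01 with the other 4 laminin chains of 100 or more UMIs. Without low count cells these were -0.43 to -0.18. These points share libraries, depth and the clustering that drew the classes, so rho is a description. At HH10 LAMA5 was highest in the class named primitive streak, at 197 CPM (144 to 263), and in undifferentiated LPM 1, at 136 CPM. Genes in general stood higher in the primitive streak class, with a median log2 fold over other cells of 0.49 over all genes, and 26.5% of them past 2-fold higher beside 10 of 17 of this set. At HH14 LAMA5 was highest in gut, at 124 CPM or 3.50-fold the other cells (2.47 to 4.83), and at HH18 in first ectoderm, at 113 CPM or 4.42-fold (3.09 to 6.21), not apart from the 108 CPM of splanchnic LPM. It was low in limb bud mesenchyme, flank LPM and somatopleure, at 5.15 to 23.0 CPM over HH14 and HH18, and had 0 UMIs in endoderm at HH14.

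LAMB1 was highest in the primitive streak class at HH10, in gut at HH14 and in first ectoderm at HH18, at 527, 485 and 407 CPM. Outside the low count cells it was lowest at HH14 and HH18 in somatopleure, the outer layer of lateral plate, at 110 and 79.9 CPM. LAMC1 was 2.60-fold and 2.55-fold higher in second ectoderm than in other cells at HH14 and HH18, at 53.9 and 46.6 CPM. The highest classes for LAMC1 were gut at HH14 and splanchnic LPM at HH18, at 54.6 and 53.8 CPM, with intervals that overlapped those of second ectoderm. LAMA1 was highest in endoderm at HH10, at 201 CPM and 3.89-fold the other cells (2.78 to 5.30). At HH14 LAMA1 was highest in blood vessels, at 148 CPM, which did not differ beyond counting error from the 135 CPM of endoderm.

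LAMA4 had another distribution. At HH10 all 8 of its UMIs lay in blood vessels, at 13.4 CPM (5.78 to 26.4). At HH14 it was at 23.0 CPM in flank LPM, 16.9 CPM in blood vessels and 12.6 CPM in limb bud mesenchyme, on 4 UMIs each, at 9.17 CPM in amnion on 10 UMIs, and had 0 UMIs in somatopleure and second ectoderm. At HH18 flank LPM held 33.4 CPM (19.1 to 54.3), 3.63-fold the other cells, limb bud mesenchyme 14.3 CPM and amnion 13.0 CPM on 8 UMIs. Flank and limb bud mesenchyme made up 1.83% and 1.60% of cells at HH14 but 5.41% and 24.4% at HH18. Within flank LPM and within limb bud mesenchyme, the LAMA4 intervals at HH18 and HH14 overlapped.

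LAMA3, a chain of the laminin that anchors skin epithelium, and LAMB4, a further beta chain, were seen only as traces. LAMA3 had 6 UMIs at HH14 and 6 at HH18, of which 5 and 4 lay in second ectoderm. LAMB4 had 19 UMIs at HH18, of which 17 lay in second ectoderm, at 17.6 CPM, and 0 in first ectoderm. LAMB4 lies next to LAMB1 in the RefSeq annotation of GRCg7b, and LAMB1 stood at 366 CPM in second ectoderm and 407 CPM in first ectoderm. How reads that both genes could claim were counted is not given in the sources used here, so the LAMB4 level is uncertain.

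**Figure D4:**
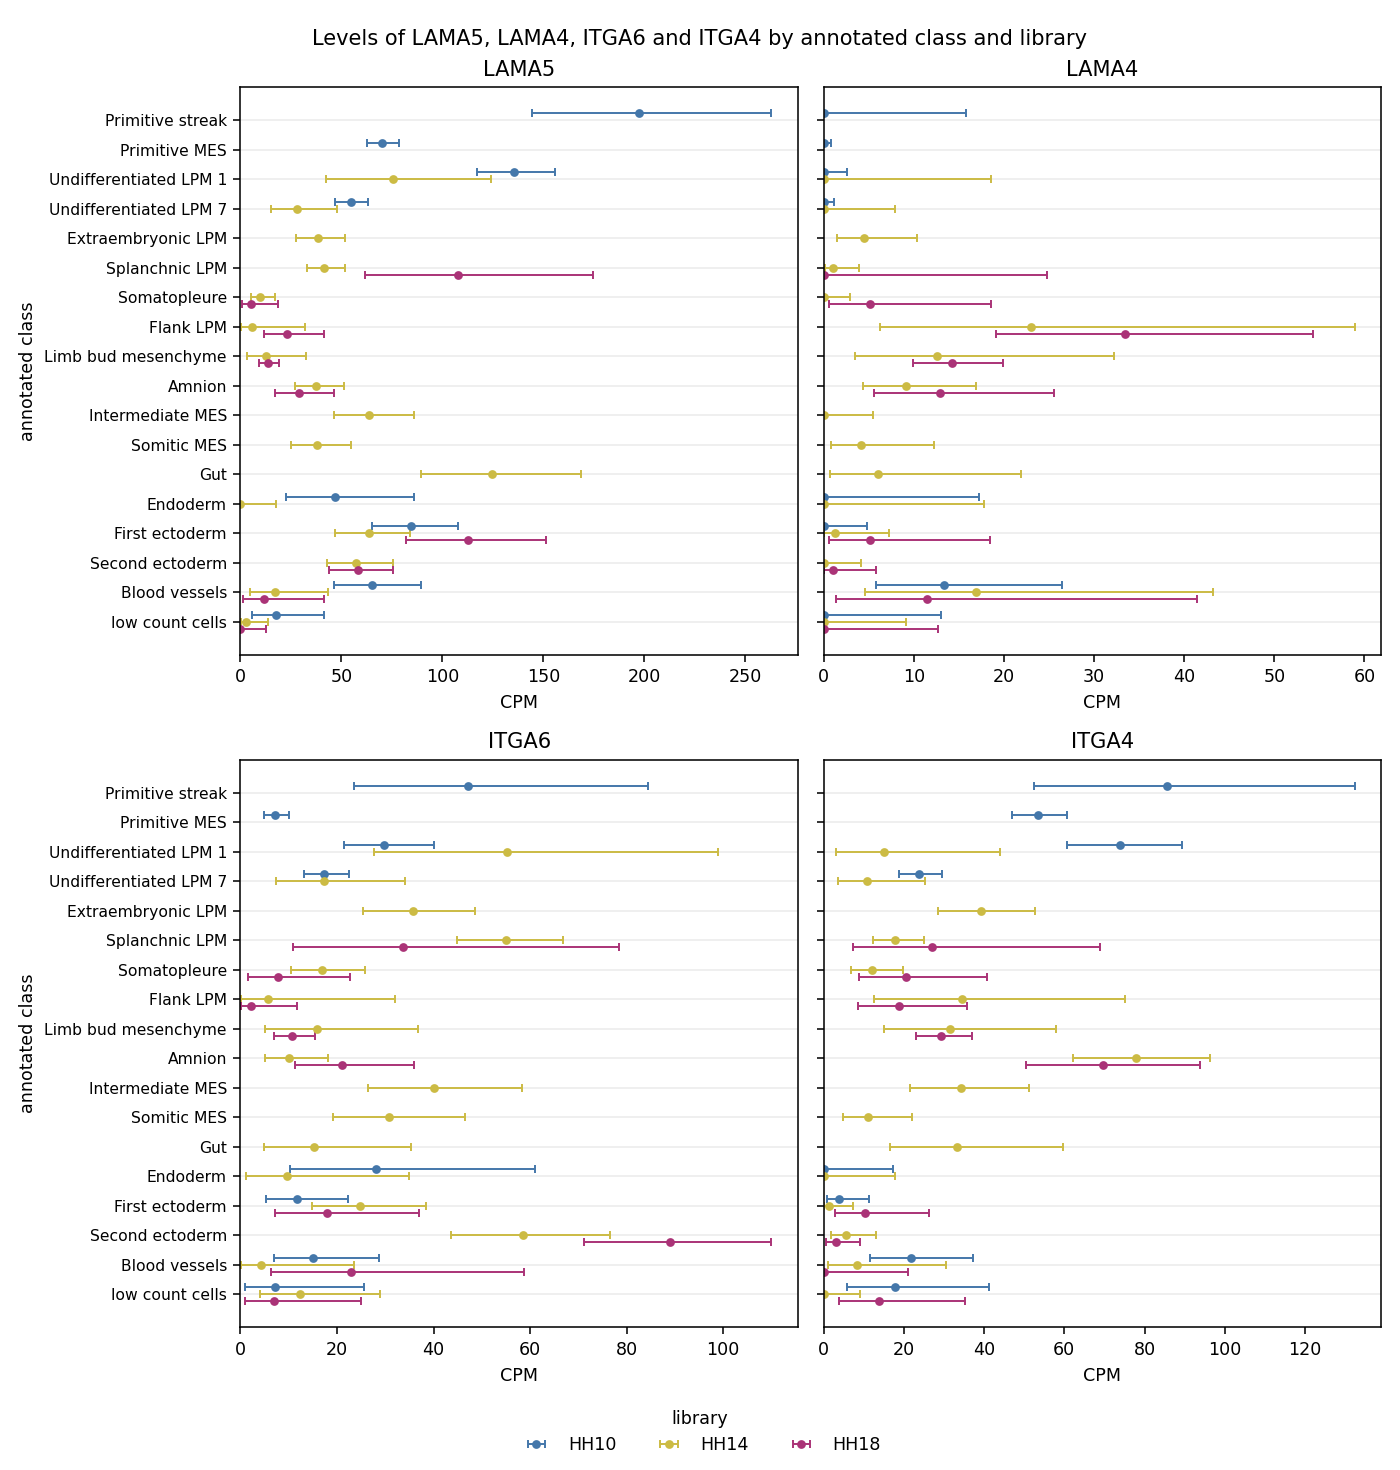
Levels (CPM, separate scales) of LAMA5, LAMA4, ITGA6 and ITGA4 in each annotated class, with exact 95% Poisson intervals, coloured by library. LAMA5 is low in limb bud mesenchyme and LAMA4 is not, ITGA6 is highest in second ectoderm at HH18 (89.0 CPM), and ITGA4 is highest in amnion at HH14 and HH18 (78.0 and 69.7 CPM).

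Of the linkers, NID1 was highest in endoderm at HH10, at 60.6 CPM (32.3 to 104) and 14.4-fold the other cells, on 13 UMIs. At HH18 it was highest in second ectoderm, at 28.0 CPM and 3.64-fold (2.16 to 6.02), and it had 0 UMIs in somatopleure. HSPG2 was highest in blood vessels at HH14 and HH18, at 131 and 172 CPM, or 2.78-fold and 3.51-fold the other cells. Endoderm was next at HH14, at 116 CPM. At HH10 HSPG2 was highest in the primitive streak class, at 85.7 CPM, with blood vessels at 55.2 CPM. AGRN was highest in blood vessels at HH10 and HH14, at 144 and 189.7 CPM, and in second ectoderm at HH18, at 183 CPM or 3.05-fold (2.53 to 3.67). The next classes for AGRN were endoderm at HH10, at 131 CPM, and gut at HH14, at 176 CPM. For NID1, HSPG2 and AGRN, the intervals of these highest classes overlapped those of the next class. Outside the low count cells, AGRN was lowest in primitive MES, limb bud mesenchyme and flank LPM at HH10, HH14 and HH18, at 23.4, 22.0 and 23.0 CPM.

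The laminin receptor chains were both high in second ectoderm. ITGA6 was there at 58.4 CPM (43.6 to 76.6) at HH14 and 89.0 CPM (71.2 to 110) at HH18, or 2.11-fold and 6.30-fold the other cells. At HH14 undifferentiated LPM 1 and splanchnic LPM, at 55.3 and 55.0 CPM, were not apart from second ectoderm. ITGA3 was at 46.1 and 80.8 CPM in second ectoderm, or 3.79-fold and 6.84-fold the other cells, at 48.2 CPM in endoderm at HH14, and at 36.5 CPM in first ectoderm at HH10. ITGA6 made up 81.0% (73.0% to 87.4%) of the ITGA6 and ITGA3 UMIs in splanchnic LPM at HH14, against 55.9% (45.2% to 66.2%) in second ectoderm. In limb bud mesenchyme at HH18 both were low, at 10.6 CPM for ITGA6 and 8.97 CPM for ITGA3.

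Several genes of the set were high together in second ectoderm at HH18 and in gut at HH14. Of 18 measured genes, 8 were past 2-fold higher in second ectoderm at HH18 than in the other cells and 2 lower, where 5.23% and 9.17% of all genes were. Those higher were AGRN, FN1, ITGA3, ITGA6, LAMA5, LAMB1, LAMC1 and NID1. ITGA4 and LAMA4 were lower, at 3.11 and 1.04 CPM, against 27.4 and 12.7 CPM in the other cells. First ectoderm at HH18 shared FN1, LAMA5 and LAMB1 past 2-fold higher but held ITGA6 at 17.9 CPM and LAMC1 at 15.3 CPM. In gut at HH14, 8 of 18 were higher and 2 lower, where 8.46% and 9.96% of all genes were. Those higher in gut were AGRN, FN1, ITGA8, ITGAV, ITGB3, LAMA5, LAMC1 and NID1. The lower ones were ITGA3 and ITGA6, which were past 2-fold higher in second ectoderm.

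The fibronectin receptor chain ITGA4 was highest in amnion at HH14 and HH18. Its level there was 78.0 CPM (62.3 to 96.4) in amnion at HH14 and 69.7 CPM (50.4 to 93.8) at HH18, or 4.27-fold and 3.66-fold the other cells, and both intervals were apart from that of the next class. At HH10 the primitive streak class and undifferentiated LPM 1 were highest, at 85.7 and 74.0 CPM. Other mesoderm varied. Primitive MES held 242 of the 490 ITGA4 UMIs at HH10, on 4526156 of the 11855255 UMIs of all genes. After amnion, extraembryonic LPM was next at HH14, at 39.2 CPM, and limb bud mesenchyme at HH18, at 29.4 CPM. Lower were undifferentiated LPM 7 at HH10, at 23.7 CPM or 0.492 of the other cells, and 2 classes at HH14. These were somatopleure and somitic MES, at 12.1 and 11.2 CPM, 0.472 and 0.448 of the other cells. In first ectoderm at HH10 and HH14 ITGA4 had 3 and 1 UMIs, and 0 UMIs in endoderm at both stages. FN1 was high in these ectoderm and endoderm classes. Within undifferentiated LPM 1, ITGA4 was at 15.1 CPM at HH14, against 74.0 CPM at HH10, a fold of 0.204 (0.0414 to 0.612) on 3 and 107 UMIs. ITGB5 was past 2-fold lower in that class too, and 2 of 14 measured genes were lower and 0 higher, where 8.88% and 1.9% of all genes were.

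ITGA9 was highest in undifferentiated LPM 1 at HH10 (90.6 CPM, 3.34-fold the other cells), in amnion at HH14 (96.3 CPM, 2.54-fold) and in flank LPM at HH18 (62.7 CPM, 2.15-fold). It had 1 UMI in splanchnic LPM at HH18, or 6.72 CPM, against 69.0 CPM at HH14, a fold of 0.0975 (0.00245 to 0.553). ITGB5 was high in both amnion and first ectoderm, at 53.2 and 58.4 CPM at HH14 and 72.9 and 69.1 CPM at HH18.

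The RGD-binding chains ITGB3, ITGAV and ITGA8 were high in vessels and gut. ITGB5, a partner of ITGAV, was past 2-fold higher in amnion and first ectoderm, and in neither vessels nor gut. ITGB3 was at 41.9 (27.1 to 61.8) and 42.2 (20.2 to 77.5) CPM in blood vessels at HH10 and HH14, or 11.8-fold and 11.6-fold the other cells, and at 33.4 CPM in gut at HH14. At HH10 it was also at 23.4 CPM in first ectoderm, 5.53-fold the other cells (3.02 to 9.71). At HH18 somatopleure was highest, at 30.9 CPM (16.0 to 54.0) on 12 UMIs, against 2.41 CPM there at HH14, and its interval overlapped that of blood vessels, at 11.5 CPM on 2 UMIs. The endothelial list was at 56.7 CPM in that class at HH18, against 72.3 CPM at HH14, with KDR, CDH5 and ERG at 0 at HH18, and the blood list at 1391 CPM, against 755 CPM at HH14. Their part in the ITGB3 value was not tested.

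ITGAV was at 129, 105 and 80.3 CPM in blood vessels at HH10, HH14 and HH18. Splanchnic LPM and amnion held 108 and 87.5 CPM of ITGAV at HH18. In gut at HH14 it was at 224 CPM (176 to 282), 4.85-fold the other cells and apart from the next class. Outside the low count cells, limb bud mesenchyme was lowest for ITGAV at HH14 and HH18, at 22.0 and 20.4 CPM. ITGA8 was at 15.1, 75.9 and 40.1 CPM in blood vessels at HH10, HH14 and HH18, on 9, 18 and 7 UMIs, and was highest there at HH14 and HH18. Gut at HH14 held 45.5 CPM of ITGA8 and undifferentiated LPM 1 at HH10 held 20.1 CPM. Splanchnic LPM was also past 2-fold higher for ITGA8 than the other cells at HH14 and HH18. At HH18 its level was 13.4 CPM (1.63 to 48.6), below the 20.2 CPM that 3 UMIs would give. That interval held the 4.57 CPM over all cells of the library. In the first ectoderm cluster ITGA8 had 0 UMIs in all 3 libraries, where 3 UMIs would be 3.91, 3.89 and 7.67 CPM.

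**Figure D5:**
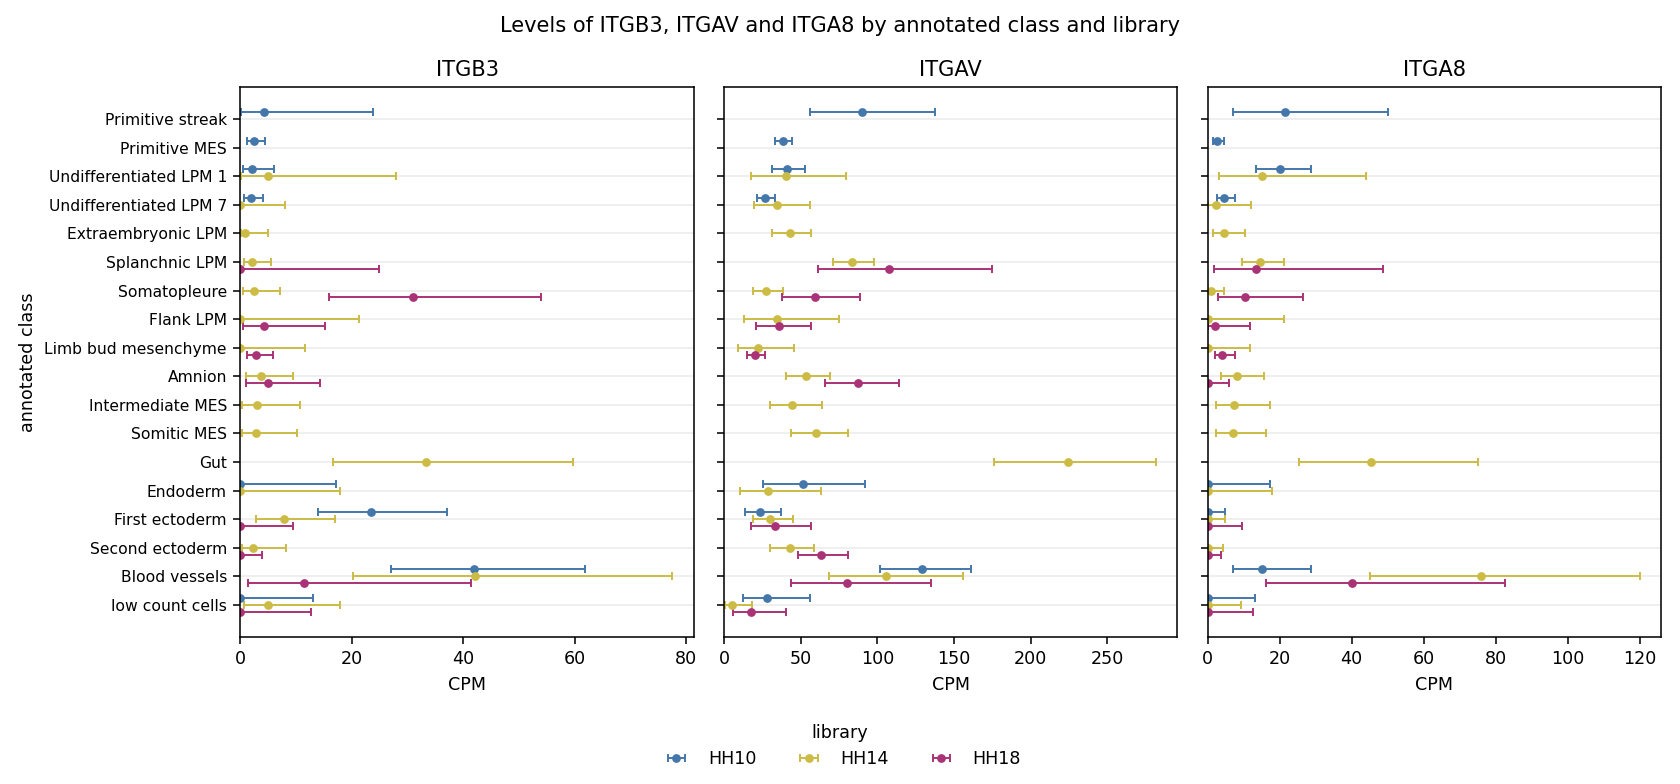
Levels (CPM, separate scales) of ITGB3, ITGAV and ITGA8 in each annotated class, with exact 95% Poisson intervals, coloured by library. Gut at HH14 is high in each panel, with ITGAV at 224 CPM, and somatopleure at HH18 is the highest class of that library for ITGB3, at 30.9 CPM.

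Blood vessels thus held little FN1 and much HSPG2, AGRN, ITGB3, ITGAV and ITGA8. At HH10, however, the primitive streak class was highest for HSPG2 and ITGA8, and at HH14 gut was highest for ITGAV. At HH18 other classes were highest for AGRN, ITGB3 and ITGAV. Within blood vessels, HSPG2 was at 55.2, 131 and 172 CPM at HH10, HH14 and HH18, and LAMA1 at 46.9, 148 and 57.3 CPM. LAMA5 was at 65.3, 16.9 and 11.5 CPM, with a fold of 0.258 for HH14 over HH10 (0.0670 to 0.716) on 4 and 39 UMIs. FN1 was lower as well, with a fold of 0.247 (0.0769 to 0.615) for HH14 over HH10. For that pair of stages 3 of 10 measured genes were past 2-fold higher in blood vessels (LAMA1, HSPG2 and ITGA9) and 2 lower, where 4.83% and 6.41% of all genes were. ITGA9 was at 63.2 CPM at HH14, against 28.5 CPM at HH10, on 15 and 17 UMIs. For HH18 over HH14, LAMA1 was lower, with a fold of 0.389 (0.172 to 0.802), 1 of 6 lower and 0 higher, where 2.55% and 2.69% of all genes were. For HH18 over HH10, 1 of 8 was higher (HSPG2) and 2 lower (FN1 and LAMA5), where 5.68% and 7.21% of all genes were.

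Somatopleure stood at the other end. At HH14, 11 of 18 genes were past 2-fold lower there than in the other cells and 0 higher, where 14.8% and 0.713% of all genes were. At HH18, 9 of 18 were lower and 2, ITGB3 and ITGA8, higher, where 16% and 1.61% of all genes were. The all-gene median log2 fold of this class was -0.23 and -0.22, and its cells had a median of 5335 and 3395 UMIs. The part of depth was not tested. ITGB1 was at 197 and 201 CPM in somatopleure at HH14 and HH18, its lowest at both stages outside the low count cells. The low count cells had 11 of 17, 13 of 18 and 12 of 18 genes past 2-fold lower at HH10, HH14 and HH18, where 19.2%, 19.5% and 20.3% of all genes were, with the blood list at 1358 to 2843 CPM.

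Within the remaining classes few genes lay past 2-fold between stages. In splanchnic LPM 3 of 12 were higher at HH18 than at HH14 and 1 lower, where 5.65% and 9.09% of all genes were. These were FN1, LAMA5 (2.59-fold, 1.41 to 4.48) and LAMC1 (2.85-fold, 1.14 to 6.26) on the higher side and ITGA9 on the lower, with only 21 splanchnic cells at HH18. In second ectoderm NID1 was 2.07-fold higher at HH18 than at HH14 (1.02 to 4.49), 1 of 14 higher and 0 lower, where 2.62% and 1.44% of all genes were. In somatopleure ITGAV was 2.17-fold higher at HH18 than at HH14 (1.22 to 3.79), 1 of 7 higher and 0 lower, where 2.61% and 3.37% of all genes were.

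In endoderm HSPG2 was 3.54-fold higher at HH14 than at HH10 (1.48 to 9.74), 1 of 6 higher and 0 lower, where 4.47% and 7.23% of all genes were. In first ectoderm HSPG2 was 2.49-fold higher at HH18 than at HH10 (1.50 to 4.16), 1 of 10 higher and 0 lower, where 6.84% and 5.61% of all genes were. HSPG2 was thus on the higher side in blood vessels, endoderm and first ectoderm. In undifferentiated LPM 7 ITGA4 was lower at HH14 than at HH10 (0.456, 0.144 to 1.11, on 5 and 78 UMIs), 1 of 14 lower and 0 higher, where 5.59% and 2.38% of all genes were. For HH18 over HH14, amnion had 0 of 12 higher and 0 lower, where 2.55% and 1.81% of all genes were. First ectoderm had 0 of 10 in either direction, where 4.41% and 2.36% of all genes were higher and lower. Flank LPM had 0 of 5 in either direction, where 6.08% and 0.813% were.

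In limb bud mesenchyme at HH18, from 180 cells, 7 of 18 genes were past 2-fold lower than in the other cells and 0 higher, where 8.71% and 2.29% of all genes were. These were FN1, ITGA3, ITGA6, ITGAV, ITGB5, LAMA5 and NID1. AGRN was at 57.1 CPM there at HH18, against 22.0 CPM at HH14, a fold of 2.59 (1.22 to 6.56) on 140 and 7 UMIs. AGRN was the only gene of 14 measured past 2-fold higher between these stages and 0 were lower, where 6.88% and 1.8% of all genes were.

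Among genes that work with this set, 4 lists were counted over all cells. The lists were chosen with earlier results of these data known, so their counts are descriptions only. Of 24 basement membrane partners present, 22 were measured for HH14 over HH10, with 8 past 2-fold higher and 2 lower and a median log2 fold of 0.45, where 6.66% and 2.89% of all genes were higher and lower. For HH18 over HH10, 9 of 21 were higher and 1 lower, with a median of 0.70, where 9.1% and 4.22% of all genes were. The equal class mix held only blood vessels, first ectoderm and low count cells for HH18 over HH10. For HH14 over HH10 it also held endoderm and undifferentiated LPM 1 and 7. With the mix of each pair, the partners had 1 higher and 1 lower for HH14 over HH10, and 3 and 0 for HH18 over HH10. How many partners were still measured with the mix is not given here, so their share cannot be read. Of all measured genes, 336 of 9164 were then higher and 312 lower for HH14 over HH10. For HH18 over HH10, 422 of 6723 were higher and 248 lower. SMOC2 was 32.0-fold higher at HH18 than at HH10 (15.1 to 81.3), on 124 and 7 UMIs, while SMOC1 was lower, at 0.227 (0.191 to 0.268). The cell-surface proteoglycan GPC3 was at 113 CPM at HH18, against 22.3 CPM at HH14, a fold of 5.06 (4.38 to 5.86).

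Of the integrin adhesion machinery, the talin, kindlin and focal adhesion genes, 27 were measured for HH14 over HH10, with 2 higher and 0 lower, and 26 for HH18 over HH10, with 3 higher and 0 lower. Of all genes, 6.66% were higher and 2.89% lower for HH14 over HH10, and 9.1% and 4.22% for HH18 over HH10. TNS3, a tensin that links integrin tails to actin, was 4.49-fold higher at HH18 than at HH10 (3.51 to 5.79). Other integrin ligands had 10 of 21 higher and 0 lower for HH14 over HH10, where 6.66% and 2.89% of all genes were. Their median log2 fold was 0.91. For HH18 over HH14, 1 ligand was higher and 4 lower, with a median of -0.46, where 3.09% and 2.76% of all genes were. The equal class mix left out classes with under 20 cells in either library. With it the ligands had 2 higher and 2 lower for HH14 over HH10, and 0 and 2 for HH18 over HH14. How many ligands were still measured with the mix is not given here either. Of all measured genes, 336 of 9164 were then higher and 312 lower for HH14 over HH10. For HH18 over HH14, 313 of 9920 were higher and 141 lower. EMILIN2 was 6.17-fold higher at HH18 than at HH10. VTN, the vitronectin gene, was at 2.90 CPM at HH18, against 14.9 CPM at HH14, a fold of 0.194 (0.114 to 0.313). Of the matrix proteases and inhibitors, 4 of 14 were higher and 0 lower for HH18 over HH10, where 9.1% and 4.22% of all genes were. ADAMTS1 was among those higher, at 7.77-fold (5.63 to 10.9). Values of this list and of the adhesion machinery are given over all cells only, so stage and class mix cannot be told apart.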

How the data were processed

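UMI counts per gene and cell, not normalised, were deposited by the authors for each library, with 1 annotation table of classes and percent ribosomal UMIs per cell. Libraries used the 10x Genomics 3' kit, version 3.1, per the labels' protocols, and Cell Ranger 4.0.0 and build GRCg6a are named in the submitters' processing notes. Cells were classed by the finer annotation, or by the first level for 980 cells that lack it. The 2 first-level clusters that share the name ectoderm are called first and second by cluster number.

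Counts were summed by class and library and scaled by the summed UMIs of the same cells (Python 3.11.15, numpy 2.4.6, scipy 1.17.1, pandas 2.3.3). Levels have exact Poisson, folds exact conditional binomial and shares exact Clopper-Pearson intervals, all at 95% and for counting error only. A gene was measured with 30 UMIs in both sums together. A group with no UMI gives a bound from 3 UMIs. Scrublet in scanpy 1.11.5 called 2, 5 and 0 doublets at HH10, HH14 and HH18. Whether it found the doublets present was not tested, and doublets were not removed.

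The genes and lists were chosen with earlier results of these data known. All 30 genes are accounted for. Those past 2-fold over all cells are named for each pair of stages. For genes with 100 or more UMIs, classes of high or low level are named, though not the highest and lowest class for every gene and stage. Of each partner list, genes named come from the up to 4 with the largest absolute log2 fold for a pair of stages. Alternatives covered scaling, depth, the cells entered, class mix, minimum UMIs, fold and the mesenchyme alone. The 9 other annotation columns were not used.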

Additional observations from a re-analysis of the deposited data

Results flagged for a closer look

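FN1 moved in opposite directions in 2 mesenchymal classes between HH18 and HH14. In splanchnic LPM it was at 444 CPM at HH18 (66 UMIs, 21 cells), against 173 CPM at HH14 (321 UMIs), a fold of 2.56 (1.94 to 3.35). In limb bud mesenchyme it was at 137 CPM at HH18 (337 UMIs), against 192 CPM at HH14 (61 UMIs, 21 cells), a fold of 0.715 (0.543 to 0.956). The intervals lie on opposite sides of 1 and cover counting error only, and the difference between the classes was not tested. In splanchnic LPM at HH18, 1 of the 21 cells held 23 of the 66 FN1 UMIs.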

How the results depend on the processing

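Each stage is 1 library, so leaving out a replicate was not possible. No paired analysis was possible because each stage is 1 library and all carry the number 1. No fold past 2-fold over all cells changed sign where the gene still had 30 or more UMIs under the alternative. Other folds could not be compared. With an equal class mix, LAMA4 fell below that number for HH14 over HH10 and for HH18 over HH10. NID1 did so for HH18 over HH10. These higher folds were thus not checked against class mix. Within 2-fold over all cells, genes that changed sign with an equal class mix included NID1 and FN1 for HH14 over HH10 (0.462 and 0.657). LAMA5 for HH18 over HH14 did so as well, being lower in the main values and higher with that mix. Counts of genes of the set past 2-fold are given as higher, then lower. For HH14 over HH10 (2 and 0), higher was 0 after thinning to 2800 UMIs, 1 without cells of high UMIs, 1 with an equal class mix, 0 at a minimum of 100 UMIs, 1 at 4-fold, 1 where the interval also had to pass and 1 in mesenchyme. Lower was 1 as a mean over cells, 1 thinned, 3 with an equal class mix and 2 in mesenchyme. For HH18 over HH14 (1 and 0), higher was 0 thinned, 0 with an equal class mix, 4 at a minimum of 10 UMIs, 0 at 4-fold and 2 in mesenchyme, and lower was 1 without cells of high UMIs and 1 in mesenchyme. For HH18 over HH10 (2 and 1), higher was 1 with median-of-ratios scaling, thinned, with an equal class mix, at 100 UMIs, at 4-fold and by interval, and 5 at 10 UMIs. Lower was 3 without cells of high UMIs, 0 at 4-fold and 3 in mesenchyme. Partner genes higher for HH14 over HH10 (24) were 6 with an equal class mix, 15 at 100 UMIs, 7 at 4-fold and 15 by interval, and lower (2) 1 at 4-fold. For HH18 over HH14, higher (8) was 1 at 4-fold and 3 by interval, and lower (4) was 2 with an equal class mix and 2 at 100 UMIs. For HH18 over HH10, higher (20) was 10 with an equal class mix, 13 at 100 UMIs and 10 at 4-fold, and lower (3) was 5 as a mean over cells. Genes higher in any class were 4, 5 and 5 at 4-fold and 9, 8 and 10 by interval at HH10, HH14 and HH18, and 9 at HH18 thinned. Matching counts over all genes were not made for these, nor between stages for minimum UMIs, 4-fold and interval. Whether those shifts are particular to the set thus cannot be read. After thinning, 362 of 8533 genes of the series were higher and 232 lower for HH14 over HH10. For HH18 over HH14, 208 of 8155 and 143 were. For HH18 over HH10, 527 of 8061 and 315 were. Unthinned FN1 shares in first ectoderm were 89.2% at HH14 and 90.6% at HH18. The causes were not tested. Of folds of single genes, 362 stayed and 69 moved. With an equal class mix, higher calls made up 51.9% of all calls for HH14 over HH10, beside 69.7%, and 68.9% for HH18 over HH14, beside 52.8%. Classes of 20 to 40 cells limit many genes to a few UMIs.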
